A study of Mus musculus with 6 samples.

Results

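The genes described here are 45 Wnt ligands, R-spondins, receptors and pathway regulators, chosen by their symbols and all found among the 43346 gene IDs counted. RNA-seq measured them in liver of C57BL6 mice at an age of 3 months. The Control group has 3 libraries, whose alleles are not described further in the labels, and the group labelled DKO has 3, from mice with a hepatocyte-specific double knockout of β-catenin (gene Ctnnb1) and γ-catenin (gene Jup). The promoter or Cre line behind the deletion is not given in the sources used here, and endothelial, stellate, Kupffer and bile duct cells are outside a hepatocyte-specific deletion. The labels number the libraries and do not say whether each came from its own animal. Every p-value is therefore set against the spread of these libraries alone, which may be technical.

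Wnt proteins are lipid-modified signals that bind Frizzled receptors together with the co-receptors LRP5 and LRP6. Without a signal, a destruction complex of AXIN, APC, GSK3 and CK1 marks β-catenin for breakdown. With a signal, Dishevelled proteins inhibit that complex and β-catenin enters the nucleus, where it works with TCF/LEF factors. In liver, endothelial cells of the central vein supply Wnt2, Wnt9b and Rspo3, and the hepatocytes around that vein respond with feedback genes such as Axin2, Lgr5, Notum, Rnf43, Znrf3 and Nkd1.

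The DKO-labelled libraries were shallow and held many reads in genes that Control liver does not use, which bears on every comparison below. Reads assigned to genes numbered 12320487 to 15869639 per Control library. DKO replicates 1, 2 and 3 held 309731, 525037 and 1491237, and values given in threes follow this replicate order throughout. Protein-coding genes with at most 10 reads over the Control libraries, called silent genes here (8600 genes), gave the background. They averaged 0.0878 to 0.157 reads per kb of exonic length in Control and 1.34, 0.968 and 2.40 in the DKO libraries. A set of 163 abundant nuclear genes had a median of 0.0465%, 1.88% and 0.550% of their mean Control reads in DKO replicates 1, 2 and 3. The summed level of 8 hepatocyte markers was 117150 to 127690 CPM (gene reads scaled to library size with edgeR's TMM factors) in Control and 799, 38718 and 7296 CPM in the DKO libraries. Fewer cells of a type and less RNA per cell cannot be told apart in such bulk samples. The targeted gene Ctnnb1 had 2945, 2896 and 2650 reads in Control and 0, 52 and 65 in DKO, and its log2 fold change was -2.26 (SE 1.30, adjusted p = 0.171). Jup had one of -1.68 (SE 0.72, adjusted p = 0.0847). Neither passed an adjusted p of 0.05 in edgeR with all libraries on the TMM scale. Neither did with DESeq2 size factors, upper-quartile scaling, library size alone or the replicate block. With all libraries, both were called lower when no filter was applied. In DESeq2, after background subtraction and after subtraction by GC content, 1 of the 2 was called lower. Without DKO replicate 1 both passed in edgeR (adjusted p = 0.0119 and 0.0434). Scaled on the abundant genes, both turned positive (0.89 and 3.90) and 1 was called higher. All directions below are between libraries as labelled.

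Control liver expressed most of the pathway. At least 1 CPM in each Control library was reached by 36 of 45 genes. Per kb of exonic length, Dvl2, a Dishevelled protein, had the highest level at 54.0 ± 6.34 CPM per kb (SD, n = 3, as for the levels that follow). Its relative Dvl1 came next at 20.9 ± 3.94, and Dvl3 was far lower at 2.23 ± 0.47. Below Dvl1 followed 4 genes whose levels overlapped in their spread. These were the Wnt-deacylating inhibitor Notum (13.9 ± 4.48), the R-spondin receptor Lgr4 (13.0 ± 2.72), the kinase gene Gsk3a (12.7 ± 2.13) and the CK1α gene Csnk1a1 (11.6 ± 0.93). The co-receptor gene Lrp6 had 5.52 ± 0.32 CPM per kb and its partner Lrp5 2.19 ± 0.51. The scaffold gene Axin1 had 4.11 ± 0.78, its feedback-induced relative Axin2 0.947 ± 0.265, and Apc 1.94 ± 0.25.

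Wnt ligands ranged from the upper part of the Control order to its end. Wnt5b, a ligand known mainly for signalling that does not use β-catenin, was the highest ligand per length at 3.57 ± 1.08 CPM per kb. The endothelial factors Rspo3 and Wnt2 followed at 1.60 ± 0.37 and 1.51 ± 0.35, which did not differ beyond their spread, and Wnt9b had 0.442 ± 0.132. Wnt2b, Wnt5a, Wnt9a and Wnt11 missed the threshold of 1 CPM, as did Rspo1, Fzd2, Lef1, Dkk3 and Sfrp1. Fzd2 had 0 reads in every Control library, where each 0 allows up to 3 reads, and Wnt11 had 1 read in a single library. Of the Frizzled receptors, Fzd7 (2.47 ± 0.81) and Fzd8 (2.20 ± 0.50) were the highest per length, Fzd4 had 1.69 ± 0.58 and Fzd6 the lowest expressed level at 0.613 ± 0.224. Of the TCF/LEF factors, which carry β-catenin to DNA, Tcf7l2 led with 3.07 ± 0.39 CPM per kb, ahead of Tcf7 (1.66 ± 0.72) and Tcf7l1 (1.17 ± 0.32), and Lef1 was close to absent at 0.0409 ± 0.038.

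**Figure D1:**
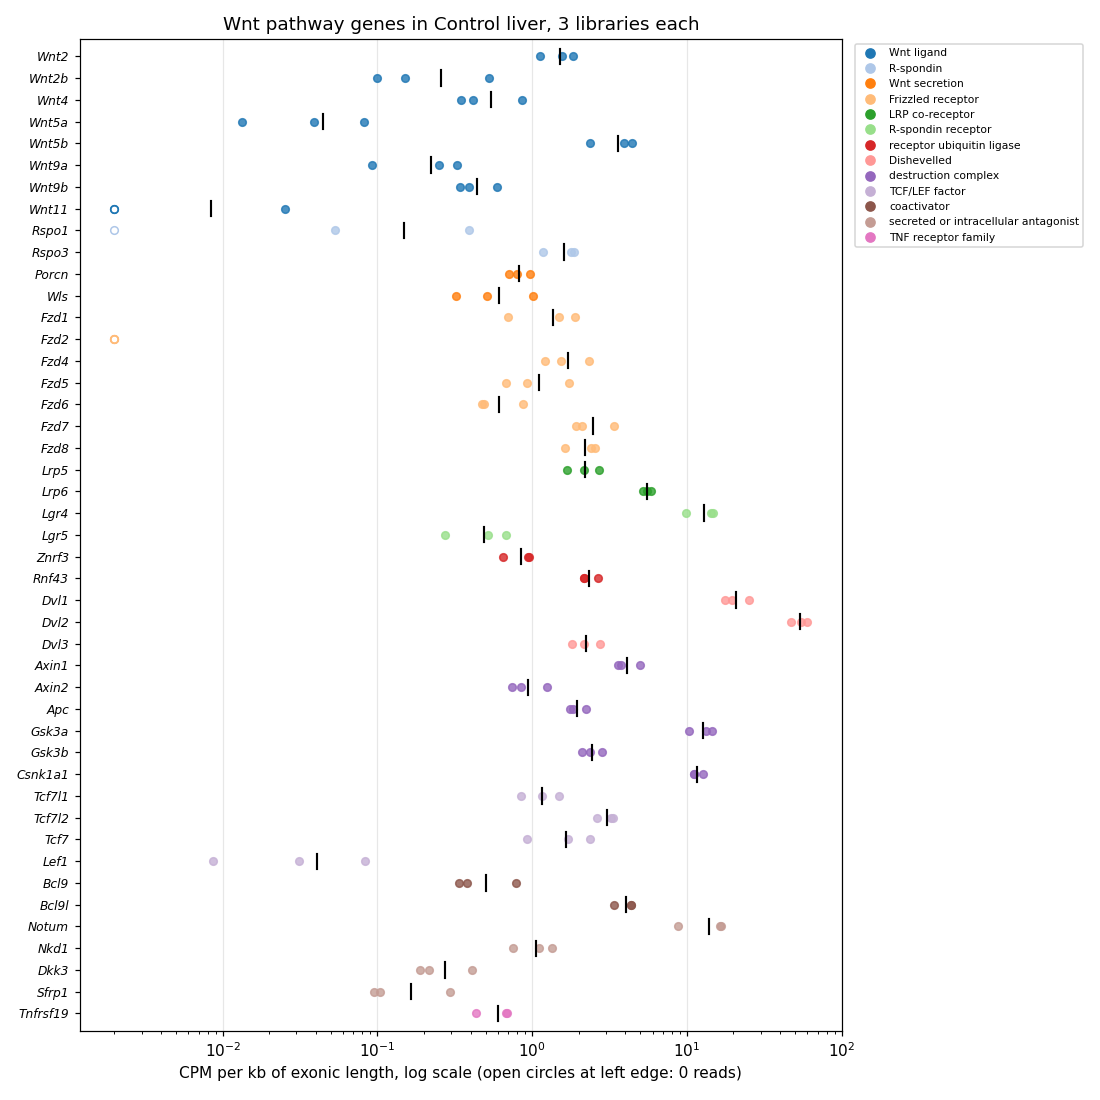
Level of each gene in the 3 Control libraries, in CPM per kb of exonic length on a log axis, with 1 point per library, a bar at the mean and colours for the role; open circles at the left edge are libraries with 0 reads. The Dishevelled genes Dvl2 and Dvl1 lie at the right (means of 54.0 and 20.9), and Lef1, Wnt5a, Wnt11 and Fzd2 at the left.

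Control replicate 1 differed from the other Control libraries in several members. Fzd4 had 15.6, 8.11 and 10.4 CPM in Control replicates 1, 2 and 3, and Wls, the carrier that takes Wnt proteins to the cell surface, had 8.85, 2.83 and 4.47 CPM. The pericentral genes Notum (21.1, 39.4 and 40.1 CPM) and Lgr5 (2.82, 6.93 and 5.30 CPM) were lowest in that library. There, the summed level of 8 sinusoidal endothelial markers was 463 CPM against 258 and 262 in the others, and that of 8 pericentral target genes 8050 CPM against 11286 and 10341. The part of either in these values was not tested. Across the 45 genes, the order of CPM correlated between Control libraries with Spearman's rho of 0.93 to 0.97, between DKO libraries with 0.57 to 0.77, and between the group means with 0.29. These are descriptions over genes that share libraries and lengths.

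In the comparison of the groups, pathway genes were called at shares close to those of all genes. Of 39 members with enough reads to test, 11 were higher and 4 lower in DKO (28.2% and 10.3%) at an adjusted p under 0.05 in edgeR's quasi-likelihood test. Over all 15561 genes tested the shares were 31.3% higher and 12.8% lower. The median log2 fold change was 0.57 over the tested members and -0.08 over all tested genes. On the scale of the abundant genes, which moved the median of all genes to 4.68, 27 members were higher and 0 lower in edgeR, with 0 lower also at an unadjusted p under 0.05 and 8 lower in DESeq2 on its own scale. Leaving out Control replicate 2 or 3 gave 7 higher, Control replicate 1 gave 1 lower, and DKO replicates 1 and 2 gave 7 and 9 lower. Groups did not overlap in CPM for 24 of the 39, against 70.4% of all tested genes. Of the 39, 34 passed the filter through their Control reads alone, and 5 (Wnt2b, Wnt4, Wnt5a, Lef1 and Sfrp1) passed only with DKO reads. Among the 34, 7 were higher and 4 lower, and of all 11099 genes that passed in this way 7.97% were higher and 17.9% lower. These members were thus more often higher and less often lower than such genes, a difference that was not tested. Of all genes that passed only with DKO reads, 89.3% were higher and 0 lower, a direction that the filter sets. The 6 members not tested were Wnt9a, Wnt9b, Wnt11, Rspo1, Fzd2 and Dkk3.

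**Figure D2:**
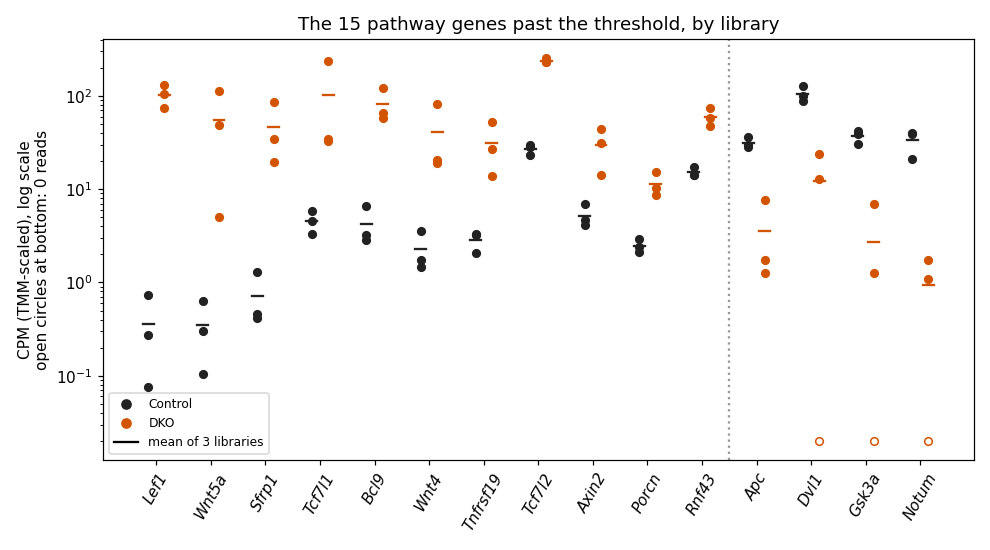
CPM of the 15 called members in each library on a log axis, Control in black and DKO in orange, with bars at the means of 3 libraries and open circles at the bottom for 0 reads. The higher genes lie left of the dotted line and Apc, Dvl1, Gsk3a and Notum right of it. In all 15, picked by the test on these same libraries, the groups do not overlap on this TMM scale, beside 70.4% of all tested genes. On the abundant-gene scale Apc and Dvl1 turn positive.

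Of the 4 TCF/LEF factors, 3 were higher (Tcf7l2, Tcf7l1 and Lef1), beside 31.3% of all tested genes, and Lef1 passed the filter only with DKO reads. Bile duct markers moved with them in part. Their summed level over 8 genes was 91.1 to 120 CPM in Control and 129, 177 and 239 CPM in DKO, where 4, 1 and 1 of the 8 were at 0. Sox9, which is also a factor of progenitor cells, had 5.10 ± 2.85 CPM in Control and 117 ± 18.6 in DKO (adjusted p = 0.000857). Epcam and Krt7 were called higher as well, but both passed the filter only with DKO reads. Of all tested genes that passed in that way, 89.3% were higher. Krt7 had 2, 1 and 13 DKO reads, below the 9.48, 6.825 and 16.88 expected from background. Spp1 was lower, and of the endothelial markers Pecam1 was higher (adjusted p = 0.00959) and Oit3 and Fcgr2b lower. The part of these cells in the TCF/LEF values was not tested. Tcf7l2 (ENSMUSG00000024985, chromosome 19, 55741820 to 55933654, mm10) had 371, 323 and 221 reads in Control and 200, 134 and 211 in DKO. In TMM-scaled CPM that was 28.3, 29.4 and 23.0 against 255, 230.5 and 228, so all DKO libraries lay far above Control. The likeness of the DKO values depends on this scale, whose TMM factors were 2.68, 1.14 and 0.641 in DKO replicates 1, 2 and 3. The log2 fold change of Tcf7l2 was 3.14 (SE 0.74, adjusted p = 0.00675). It was above those of all 200 tested genes nearest to Tcf7l2 in Control level, whose median was -1.01. The call was lost without Control replicate 1, 2 or 3 (adjusted p = 0.0536, 0.0624 and 0.0706).

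Lef1 (ENSMUSG00000027985, chromosome 3, 131110471 to 131224356) encodes the family member of lymphocytes and hair follicles. It had 1, 3 and 7 reads in Control and 102, 43 and 98 in DKO, and its log2 fold change was 8.14 (SE 0.93, adjusted p = 0.000671). Of the 200 tested genes at its Control level, 99.5% were called higher, with a median of 5.69, because the filter admits genes so low in Control only through DKO reads. Tcf7l1, mostly a repressor of Wnt targets, had 60, 64 and 32 reads in Control and 27, 19 and 221 in DKO. In CPM it was highest in DKO replicate 3 (239, against 34.4 and 32.7 in the others), and its log2 fold change was 4.48 (SE 0.94, adjusted p = 0.00394), above 99.5% of its neighbours in Control level. Tcf7 did not pass, at 4.37 ± 1.88 CPM in Control and 10.6 ± 2.22 in DKO (adjusted p = 0.155).

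TCF/LEF factors bind DNA at CTTTGA, whose other strand reads TCAAAG, so the 250 bases before the start sites were searched for it on both strands. RefSeq promoters (GRCm38.p6) matched 28 of the 45 genes and 11 of the 18 that were called or are feedback genes. A match was found in 7 of the 38 promoters of members, belonging to 7 of the 28 genes. Over all RefSeq entries it was in 13.8% of 32851 promoters and, counting a gene once, in 15.8% of 27025 genes. Lef1, Gsk3a and Tnfrsf19 were the 3 of the 11 with a match, and their windows are shown because they are the called genes that carry these letters. The windows run 5′ to 3′ on the gene's strand with matches in capitals. The Lef1 window lies at chr3:131156084-131156209 (plus strand), before an internal start, and begins 45613 bases inside the annotated gene. Gsk3a lies at chr7:25237973-25238038 and Tnfrsf19 at chr14:61038153-61038218, both on the minus strand. The Tnfrsf19 window is also before an internal start and begins 8272 bases inside the gene. The Gsk3a window lies outside the annotated gene, next to its 5′ end.
Lef1: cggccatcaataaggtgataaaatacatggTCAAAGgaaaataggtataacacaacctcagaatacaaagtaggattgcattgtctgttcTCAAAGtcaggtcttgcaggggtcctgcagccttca
Gsk3a: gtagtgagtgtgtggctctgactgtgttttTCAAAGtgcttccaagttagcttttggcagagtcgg
Tnfrsf19: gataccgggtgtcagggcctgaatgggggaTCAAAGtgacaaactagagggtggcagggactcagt
The Lef1 window holds 2 matches, 180 and 120 bases before the start. Lef1 and Tnfrsf19 were called higher and Gsk3a lower, and Axin2, Rnf43 and Nkd1 had no match in their windows.

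Bcl9, which links β-catenin to the transcription machinery, was also higher. It had 87, 31 and 31 reads in Control and 46, 38 and 112 in DKO, or 4.23 ± 2.10 against 81.7 ± 34.4 CPM. The log2 fold change was 4.26 (SE 0.67, adjusted p = 0.000966), above 97.5% of its neighbours. Its relative Bcl9l overlapped between the groups, at 32.3 ± 4.57 and 47.8 ± 32.1 CPM (log2 fold change 0.57, SE 0.67, adjusted p = 0.495).

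Among ligands, Wnt4 and Wnt5a were higher and Wnt9b had no DKO read. Both Wnt4 and Wnt5a passed the filter only with DKO reads, and of all such genes 89.3% were higher and 0 lower. Wnt4, a ligand of kidney and gonad development, had 47, 19 and 14 reads in Control and 15, 12 and 76 in DKO (log2 fold change 4.16, SE 0.84, adjusted p = 0.00322). Wnt5a, the main ligand of the planar polarity branch, had 4, 7 and 1 reads in Control and 4, 65 and 45 in DKO. Its log2 fold change was 7.20 (SE 1.23, adjusted p = 0.00133), and DKO replicate 1, at 5.09 CPM, was far below replicates 2 and 3 (112 and 48.7 CPM). The fold change of Wnt5a lay within the middle 80% of its neighbours (4.32 to 7.44).

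The central vein signals did not pass the threshold or were not tested. Wnt2 had 54, 28 and 34 reads in Control and 0, 2 and 4 in DKO, which overlapped in CPM (log2 fold change -0.39, SE 0.90, adjusted p = 0.732). Wnt2 was called lower after background subtraction (-7.34, adjusted p = 0.0267) and higher on the abundant-gene scale (2.92, adjusted p = 0.0139), where Rspo3 was also called higher (5.99, adjusted p = 0.0141). Rspo3, which strengthens Wnt signals through LGR receptors, had 75, 40 and 53 reads in Control and 7, 0 and 1 in DKO (log2 fold change -0.53, SE 0.99, adjusted p = 0.675). Wnt9b had 35, 17 and 17 reads in Control and 0 in all DKO libraries, at least 1.56-fold lower against a floor of 3 reads over the group, a bound that holds on the TMM scale but not on that of the abundant genes. From background alone 6.08, 4.38 and 10.8 Wnt9b reads were expected in DKO replicates 1, 2 and 3. The summed endothelial markers were 331, 239 and 268 CPM in DKO. Of the 8 markers, 3 were at 0 in DKO replicate 1 and none in replicates 2 and 3. Pecam1 had the highest level of the 8 in each DKO library (232, 75.7 and 88.7 CPM, against 15.96 ± 8.83 in Control). Kdr, Clec4g, Oit3 and Fcgr2b had a smaller CPM in every DKO library than in any Control library. Stab2, Lyve1 and Cdh5 overlapped between the groups, while 70.4% of all tested genes did not overlap. The sum therefore does not show whether endothelial RNA was kept. The part of endothelial cells in the Wnt2, Wnt9b and Rspo3 values was not tested. Wnt5b had reads only in DKO replicate 2 (0, 11 and 0, adjusted p = 0.652), and without that library it was called lower (-9.08, adjusted p = 0.0111).

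For Wnt secretion, Porcn, which attaches the lipid to Wnt proteins, was higher, at 28, 32 and 23 reads in Control and 8, 5 and 14 in DKO (log2 fold change 2.19, SE 0.68, adjusted p = 0.0257). That call was lost without Control replicate 1, 2 or 3 (adjusted p = 0.117, 0.113 and 0.129) and with the replicate number as a block (0.158). It lay above 70.0% of genes of similar Control level. Wls did not pass (adjusted p = 0.153).

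With all libraries on the TMM scale, no Frizzled or LRP receptor gene passed in edgeR, but several did under alternatives. None of the 6 tested Frizzled genes had an adjusted p under 0.05, and the closest was Fzd1, with 82, 32 and 77 reads in Control and 1, 1 and 0 in DKO (log2 fold change -2.65, SE 1.06, adjusted p = 0.0692, and 0.0379 in DESeq2, which also called Fzd8 lower and no LRP gene). At an unadjusted p under 0.05 in edgeR, Fzd1 was the 1 Frizzled gene that passed. Fzd7 had 202, 95 and 92 reads in Control and 6, 1 and 2 in DKO (adjusted p = 0.149). After background subtraction Fzd1 (adjusted p = 0.0470), Fzd7 (0.0139), Fzd8 (0.0118) and Lrp5 (0.0115) were called lower, and after subtraction by GC content so was Fzd5 (0.0326). Without DKO replicate 1, Fzd4 (0.00753) and Fzd7 (0.0233) were called lower, and without DKO replicate 2, Fzd6 (0.0405), Fzd8 (0.00645) and Lrp6 (0.0176). On the abundant-gene scale Fzd4 (0.0292), Fzd5 (0.00930) and Fzd7 (0.0284) were called higher. On the TMM scale, Fzd1, Fzd6, Fzd7 and Fzd8 had a smaller CPM in every DKO library than in any Control library. Fzd4 had 15 reads in DKO replicate 1 and 0 in replicates 2 and 3, and Fzd5 overlapped between groups. Lrp6 had 1049, 824 and 686 reads in Control and 11, 52 and 27 in DKO, where replicate 2 (89.4 CPM) was above all Control libraries and replicates 1 and 3 were below them (log2 fold change -0.79, SE 0.72, adjusted p = 0.377). Lrp5 had 344, 180 and 204 reads in Control and 0, 5 and 18 in DKO (log2 fold change -1.16, SE 0.96, adjusted p = 0.329).

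The feedback genes that pericentral hepatocytes use moved in different directions. Notum (ENSMUSG00000042988, chromosome 11, 120653788 to 120661175) fell from 276, 432 and 386 reads to 0, 1 and 1. Its log2 fold change of -5.22 (SE 0.95, adjusted p = 0.00175) was near the bottom of its neighbours, of which 3.0% lay lower. On the scale of the abundant genes it was -2.08 (adjusted p = 0.127). Axin2 had 90, 45 and 45 reads in Control and 35, 18 and 13 in DKO (log2 fold change 2.51, SE 0.68, adjusted p = 0.0143). Reads expected from background were 7.41, 5.33 and 13.2, so DKO replicate 3 was at the background level, and after subtraction the adjusted p was 0.250. The call was also lost without Control replicate 2 or 3 (0.0929 and 0.0879) and under the replicate block (0.0606).

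Rnf43 and Znrf3 are ubiquitin ligases that clear Frizzled receptors from the cell surface. Rnf43 was higher, at 14.2, 14.1 and 17.5 CPM in Control and 47.1, 58.5 and 74.6 in DKO (log2 fold change 1.98, SE 0.53, adjusted p = 0.0135). That call was lost without Control replicate 1, 2 or 3 (0.0660, 0.0847 and 0.0655) and under the replicate block (0.0647). Znrf3 did not pass, at 6.66 ± 1.35 and 18.1 ± 10.1 CPM (log2 fold change 1.43, SE 0.72, adjusted p = 0.125), but did in DESeq2 (0.00732) and without DKO replicate 1 (0.0174). Its value turned to -0.15 after background subtraction. Lgr5, a receptor of R-spondins and a stem cell marker in the gut, had 37, 76 and 51 reads in Control and 6, 26 and 15 in DKO. Its log2 fold change was 2.16 (SE 0.81, adjusted p = 0.0549), with 13.8, 9.94 and 24.6 reads expected from background. It passed in DESeq2 (adjusted p = 0.00554) and without DKO replicate 1 or 3 (0.0144 and 0.0299). Without DKO replicate 2 the log2 fold change was 1.10 (adjusted p = 0.212), after background subtraction it was 1.34 (0.546), and under the replicate block it was 1.93 (0.153). Nkd1, which binds Dishevelled, had 24, 0 and 8 DKO reads and did not pass (log2 fold change 1.45, SE 1.03, adjusted p = 0.261). Lgr4 overlapped between the groups, at 76.5 ± 16 and 47.0 ± 25.9 CPM (log2 fold change -0.70, SE 0.61, adjusted p = 0.354).

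Tnfrsf19, a TNF receptor family member known as a Wnt target, had 27, 36 and 31 reads in Control and 21, 8 and 49 in DKO. Its log2 fold change was 3.46 (SE 0.73, adjusted p = 0.00394), just inside the middle 80% of its neighbours, which ended at 3.47. After background subtraction by GC content the adjusted p was 0.0591. Sfrp1, a secreted decoy that binds Wnt proteins, had 17, 5 and 4 reads in Control and 67, 20 and 18 in DKO. Its log2 fold change of 5.94 (SE 0.91, adjusted p = 0.00089) lay within the middle 80% of its neighbours (3.07 to 6.14), of which 96% were called higher.

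In the destruction complex and Dishevelled, Apc, Gsk3a and Dvl1 were lower on the TMM scale, and on that of the abundant genes Apc (1.05) and Dvl1 (0.05) turned positive while Gsk3a was at -0.89 and no longer called (adjusted p = 0.532). Apc, the scaffold whose loss starts most colon tumours, had 470, 310 and 287 reads in Control and 1, 1 and 7 in DKO (log2 fold change -3.06, SE 0.79, adjusted p = 0.0112). Background alone gave an expectation of 21.7, 15.6 and 38.6 reads for this long transcript, well above what was seen. Gsk3a had 552, 424 and 290 reads in Control and 1, 4 and 0 in DKO (log2 fold change -3.95, SE 0.99, adjusted p = 0.00977). Without Control replicate 1 the adjusted p was 0.0610 for Apc and 0.0566 for Gsk3a. Only 5.0% of the 200 neighbours of Gsk3a had a lower value.

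Gsk3b, the other GSK3 gene, lay on the opposite side. It had 362, 225 and 225 reads in Control and 45, 40 and 44 in DKO, or 23.8 ± 3.58 against 57.9 ± 10.6 CPM without overlap (log2 fold change 1.28, SE 0.52, adjusted p = 0.0698). It passed in DESeq2 (0.00354) and without DKO replicate 1 or 3 (0.0264 and 0.0160), not without replicate 2 (0.0756) or after background subtraction (0.245), and was above 93.0% of its neighbours. Whether the paralogues differed in their change was not tested. Csnk1a1, with 1528, 1278 and 1284 reads in Control and 4, 14 and 47 in DKO, just missed the threshold (log2 fold change -2.19, SE 0.81, adjusted p = 0.0530). It passed without DKO replicate 1 or 3 (0.00997 and 0.0148) and in DESeq2 (0.000611), not after background subtraction (0.150), and its change was close to the median of its neighbours (-2.12). Axin1 gave an adjusted p of 0.681.

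The Dishevelled genes spread over a wide range. Dvl1 had 1161, 1081 and 1218 reads in Control and 0, 14 and 12 in DKO (log2 fold change -3.11, SE 1.00, adjusted p = 0.0306). The call was lost without Control replicate 1, 2 or 3 (0.0845, 0.0749 and 0.0941), without DKO replicate 3 (0.0638) and after background subtraction (0.141). Dvl2 had 3903, 3781 and 3631 reads in Control and 5, 96 and 30 in DKO. Its level in DKO replicate 2 (165 CPM) stood far above those in replicates 1 and 3 (6.37 and 32.5 CPM). The log2 fold change was -2.33 (SE 1.16, adjusted p = 0.125, and 0.0107 without DKO replicate 2), beside a median of -2.39 in its neighbours. Dvl3 was high in DKO replicate 3 alone (101 CPM, against 19.1 and 12 in replicates 1 and 2), with an adjusted p of 0.122, and 0.0470 and 0.0474 without DKO replicates 1 and 2.

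**Figure D3:**
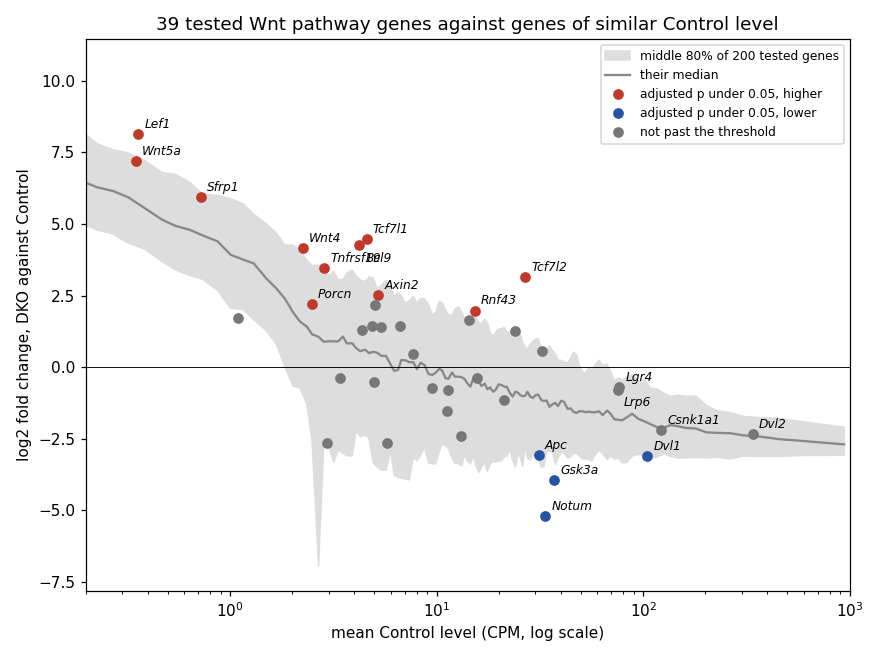
Log2 fold change of the 39 tested members against mean Control CPM (log axis), with the median and the middle 80% of windows of 200 tested genes in grey; red and blue points passed an adjusted p of 0.05. The grey median falls from above 5 at the lowest Control levels to below -2 at the highest, and Tcf7l2 stands above the band while Notum and Gsk3a lie below it.

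Set against genes of similar Control level, most members lay within the range of most such genes. The fold change fell with Control level over all genes, so each member was placed among the 200 tested genes nearest to it. Of the 39, 28 lay within the middle 80% of their neighbours, 8 above it and 3 below. That range holds 80% of the neighbours by construction, so a share of any gene list is expected outside it. More members lay above it than below, a difference that was not tested. Those above were Tcf7l2, Tcf7l1, Lef1, Bcl9, Wnt4, Rnf43, Dvl3 and Gsk3b. Those below were Notum, Gsk3a and Wnt2b. Lef1, Wnt4 and Wnt2b had passed the filter only with DKO reads. At 20 CPM or more in Control, 1 of 12 members was higher (Tcf7l2) and 4 were lower, beside 1.64% and 21.7% of all 6159 tested genes at that level. Under 5 CPM, 8 of 14 tested members were higher and 0 lower in edgeR, with 0 lower also in DESeq2 and at an unadjusted p under 0.05, and 5 of these 14 had passed the filter only with DKO reads. Of all 5738 tested genes under 5 CPM, 74.8% were higher and 2.44% lower.

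Reads expected from exonic length and the silent genes were a further yardstick. The 45 members held 788, 758 and 1472 reads in DKO replicates 1, 2 and 3, where background gave an expectation of 359, 259 and 640, and liver RNA at the Control proportion one of 5.69, 230 and 67.3. In every DKO library 13 of the 45 exceeded their expected background and 15 were below it. Over the 39 tested members the shares were 33.3% above and 23.1% below, beside 36.1% and 14.7% of all tested genes and 9.42% and 62.9% of the silent genes. Tcf7l2 was expected at 11.8, 8.5 and 21.0 reads and had 200, 134 and 211, more reads per kb than 99.3%, 99.2% and 98.3% of the silent genes. Lef1 was expected at 11.8, 8.51 and 21.0 and exceeded 97.5%, 94.1% and 94.5% of them. Silent genes were uneven, since 66.0%, 63.0% and 43.2% of them had no read in DKO replicates 1, 2 and 3, so a single gene's expectation is uncertain.

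**Figure D4:**
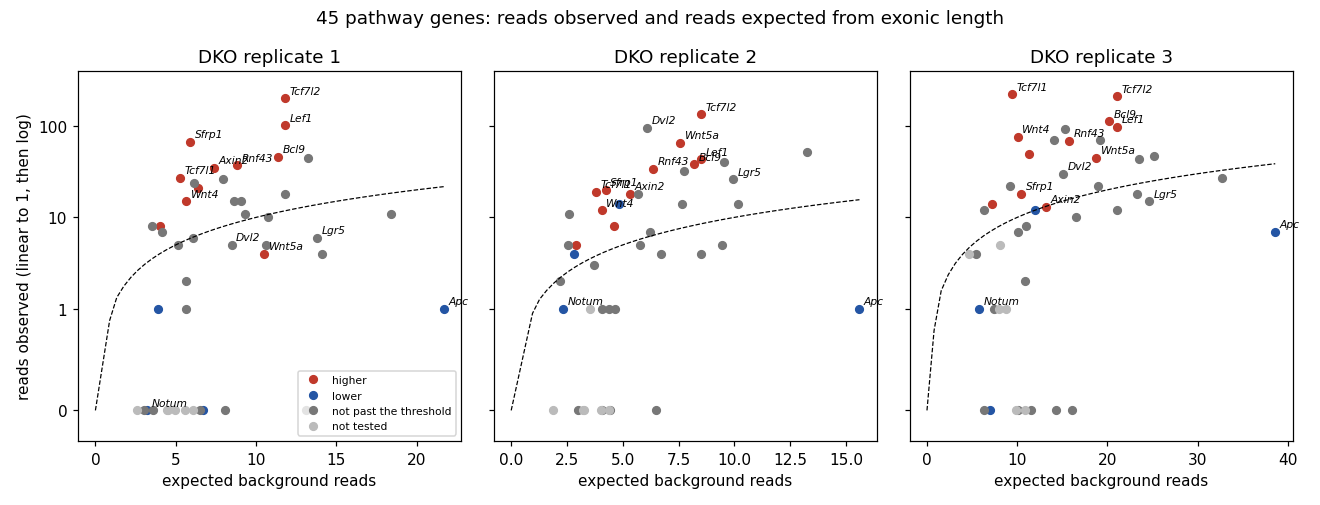
Reads observed in each DKO library (vertical axis, linear to 1 and then log) against reads expected from exonic length and silent genes (horizontal axis) for the 45 members, coloured by call, with a dashed line where both are equal. Tcf7l2, Lef1 and Bcl9 lie above the line in every panel and Apc lies far below it.

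Of the other genes of the pathway, 59 in a separate list, 38 were tested, and 20 were higher and 5 lower (52.6% and 13.2%, beside 31.3% and 12.8% of all tested genes). Of the 20, 17 were among the 18 that passed the filter only with DKO reads, and of the 20 that passed through Control reads 3 were higher and 5 lower. The 4 tested Wnt ligands had 0 reads in Control, so they could enter the test only through DKO reads, and 100% of their neighbours were called higher. Wnt3, a ligand of early development, had 0 reads in Control and 76, 20 and 55 in DKO, at least 740.3-fold higher on the TMM scale against a floor of 3 reads over the group. Sost, a bone Wnt inhibitor, had 2, 0 and 1 reads in Control and a log2 fold change of 8.93. Celsr2, a planar polarity cadherin, had 5, 6 and 13 reads in Control and a log2 fold change of 6.50. Both also passed the filter only with DKO reads, and 100% and 95% of their neighbours were called higher. Lower were Ctbp1, a corepressor (-2.89, adjusted p = 0.0046), Btrc, which marks β-catenin for breakdown (-4.22, adjusted p = 0.0111), and Pygo2, the partner of BCL9 (-3.67, adjusted p = 0.0282).

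**Figure D5:**
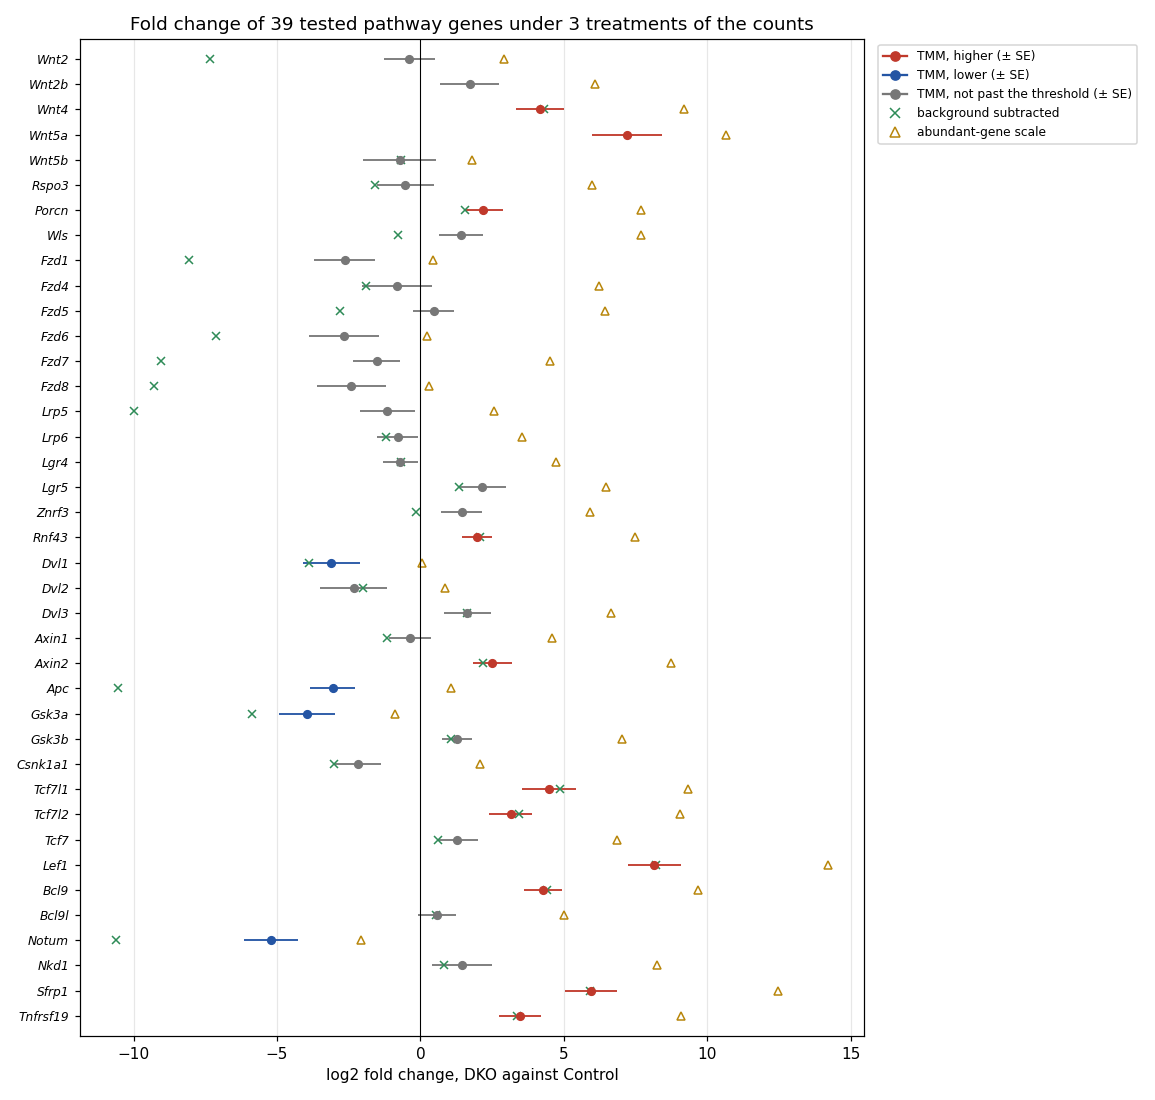
Log2 fold change (circles, bars ± SE) of the 39 tested members on the TMM scale, with crosses after background subtraction and triangles on the scale of the abundant genes. Triangles lie right of the circles throughout, Notum and Gsk3a stay left of 0 on all 3, and Lef1, Tcf7l1, Tcf7l2, Bcl9 and Wnt4 stay right of it.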

How the data were processed

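The authors deposited raw read counts for each gene ID in 6 libraries. The submitters' processing notes name STAR, HTSeq and mm10. Versions, the kit, the strand setting and the annotation are not stated there, so a gene and its overlapping or antisense partner cannot be separated. The 5 rows per library that name no gene were left out. Their share was 65.1% to 66.7% for Control, 97.3% for DKO replicate 1, 95.4% for replicate 2 and 95.3% for replicate 3. Positions and exonic lengths came from GENCODE M21 (mm10), which matched 42462 of 43346 IDs.

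The test was edgeR 4.0.16 (quasi-likelihood, robust, TMM, filterByExpr, R 4.3.3) on all 6 libraries with Benjamini-Hochberg adjustment over all tested genes, two-sided, threshold 0.05. The SE is the log2 fold change divided by the root of the F statistic. CPM are TMM-scaled. Background per library was the reads per kb of the silent genes. The script was tested on data simulated with Control proportions and the spread of the Control libraries. These held none of the added background of the DKO libraries, so that test does not cover error rates in the real comparison. Floors cover counting error only, since reads carry no molecular identifiers. Alternatives were DESeq2 1.42.0, other scalings and filters, background subtraction, the replicate number as a block, and each library left out in turn. Subtraction by GC content and neighbours from all protein-coding genes were added after seeing the data.

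The members, lists and alternatives were chosen with earlier results of these data known. Full statistics were given for called members, those at 20 CPM or more in Control and 10 fixed feedback and endothelial genes, with up to 3 other pathway genes per direction by adjusted p.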

Additional observations from a re-analysis of the deposited data

Results flagged for a closer look

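Rows that name no gene, which entered no comparison, took a larger share of reads in the DKO libraries than in any Control library (65.1% to 66.7%). The share was 97.3% in DKO replicate 1, 95.4% in replicate 2 and 95.3% in replicate 3.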

How the results depend on the processing

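The calls of Tcf7l1 and Bcl9 held in all alternatives run. Those of Lef1, Wnt4, Sfrp1 and Wnt5a did so where they had a value, but these genes passed the filter only with DKO reads, so their direction is no sign of stability. Against 11 members higher and 4 lower, DESeq2 gave 8 lower, no filter 7 lower, background subtraction 8 lower, subtraction by GC content 7 higher and 8 lower, and the abundant-gene scale 27 higher and 0 lower. That scale moved the median of all genes to 4.68. Leaving out 1 library gave 7 to 15 members higher and 1 to 9 lower, with 1 lower without Control replicate 1 and 7 and 9 lower without DKO replicates 1 and 2. Over all genes (4871 higher and 1992 lower) DESeq2 gave 4776 lower, its size factors 3577 lower, the abundant-gene scale 9718 and 85, no filter 11477 and 4650, background subtraction 2395 higher and by GC 2301 higher. Leaving out 1 library gave 4130 to 5624 higher and 567 to 4492 lower. For the other pathway genes (20 and 5), library size alone gave 2 lower, the abundant-gene scale 31 and 0, background subtraction 10 higher and by GC 8 higher, and leaving out 1 library 17 to 23 higher and 1 to 6 lower. The causes were not tested.

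On the abundant-gene scale the log2 fold change turned positive for Wnt2 (2.92), Wnt5b (1.78), Rspo3 (5.99), Fzd1 (0.44), Fzd4 (6.23), Fzd6 (0.24), Fzd7 (4.51), Fzd8 (0.31), Lrp5 (2.58), Lrp6 (3.54), Lgr4 (4.73), Dvl1 (0.051), Dvl2 (0.86), Axin1 (4.59), Apc (1.05), Csnk1a1 (2.07), Ctnnb1 (0.89), Jup (3.90) and Ctbp1 (2.04). By library size alone it did so for Rspo3 (0.51), Fzd4 (0.62) and Axin1 (0.0058), and with upper-quartile scaling for Rspo3 (0.056). Background subtraction turned Wls (-0.77), Fzd5 (-2.80) and Znrf3 (-0.15) negative, and by GC Wls (-0.22), Fzd5 (-8.51) and Znrf3 (-1.81). Leaving out 1 library gave -0.88 to 0.069 for Wnt2, -9.08 to 0.067 for Wnt5b, -3.04 to 0.46 for Rspo3, -9.33 to 0.37 for Fzd4 and -0.15 to 2.30 for Nkd1. The sign turned without DKO replicate 1 for Wnt2 and Nkd1 and without DKO replicate 3 for the others.

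The replicate block gave 8 members higher and 5 lower and ended the calls of Axin2, Porcn and Rnf43. Deviations of same-numbered libraries from their group means correlated at 0.12, 0.07 and -0.02. With DKO libraries this shallow, such values cannot decide whether the numbers pair the libraries. The number expressed in Control was 34 to 37 at other thresholds. With 309731 gene reads in the shallowest DKO library, low members such as Wnt9b or Wnt2 could not be told from background at this depth.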
